A study of Arabidopsis thaliana with 6 samples.

Results

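Among the genes that 2 trisomic forms of Arabidopsis carry at the normal dose of 2 copies, 93 stood on opposite sides of the wild type in the 2 trisomics. These genes were taken from 5469 expressed 2-copy genes (7246 expressed genes in all) by a rule on their measured levels: the log2 ratio of each trisomic to the wild type was at least 0.3 in size, and the signs of the ratios differed. Of the 93 genes, 29 were higher in trisomy 2 and lower in tertiary trisomy 2, and 64 were lower in trisomy 2 and higher in tertiary trisomy 2. Another 6 loci that met the same limits were left out by the rule. Because the ratios to the wild type chose the genes, those ratios and the ratio between the trisomics are given here as a description, with no test, and counts of test calls stand only beside the share found over all 2-copy genes.

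The wild type (WT) was diploid Col-0. Trisomy 2 (*AAA*) carried a complete extra chromosome 2 (Chr.2) without the T-DNA. Tertiary trisomy 2 (*AAa*) carried a T-DNA in AUR2 (the *aur2-1* allele) and an extra chromosome that joins Chr.2 up to AUR2 to the end of Chr.3 before AT3G20040. Both trisomics descended from the *aur2-1* line, and their diploid sibs were not among the arrays, so that descent from that line and the extra chromosome cannot be told apart in a comparison with WT; the trisomic plants were picked by their round leaves and then genotyped. Chr.1, Chr.4, Chr.5 and Chr.3 beyond AT3G20040 are present in 2 copies in all 3 karyotypes. Rosette leaves were taken at 26 days from plants kept at 22 °C with 16 h of light and 8 h of darkness, and were measured on 6 ATH1 arrays, 2 for each karyotype, each with RNA combined from 21 to 35 plants.

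An extra chromosome raises the dose of the genes it carries. Products of those genes, such as transcription factors and signalling proteins, can in turn alter transcripts of genes elsewhere in the genome, which is called a trans effect. The extra chromosomes of *AAA* and *AAa* share Chr.2 up to AUR2 and differ in the rest, so a 2-copy gene may respond to dose changes that are common to both karyotypes or that belong to one of them.

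The 2-copy genes had a median signal of 356 to 379 on the 6 arrays before the arrays were scaled to each other. Across genes, which are no independent replicates, the correlation of log2 signals was 0.983 to 0.986 for arrays of 1 karyotype and 0.961 to 0.972 for arrays of different karyotypes. The 3' to 5' log2 signal ratios of the array controls, a sign of RNA quality, had means that differed between karyotypes. The ubiquitin means of WT, *AAA* and *AAa* were 1.75, 1.62 and 1.24, with WT and *AAA* arrays overlapping and both *AAa* arrays below them. For actin the means were 3.71, 3.52 and 3.19, with arrays of all 3 karyotypes overlapping. For GAPDH they were, in the other direction, 0.06, 0.29 and 0.27. The GAPDH mean of *AAa* came from arrays at 0.48 and 0.07, the latter within the WT range of 0.04 to 0.08. The part of these ratios in the levels of the 93 genes was not tested. Of the marker genes fixed for a check of the tissue, 2 had a named probe set above the expression limit: LHCB4.1, a light-harvesting protein of photosystem II, gave signals of 26597 to 39196, and FAMA, a guard cell regulator, gave 176 to 223. The sources do not say whether the 2 arrays of a karyotype came from separate plantings, so p-values measure only the spread between these arrays, which may be technical. All signals below are linear probe set signals, scaled so that the median of the 2-copy genes was equal on all arrays, and all differences are on the log2 scale unless a fold is named.

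**Figure D1:**
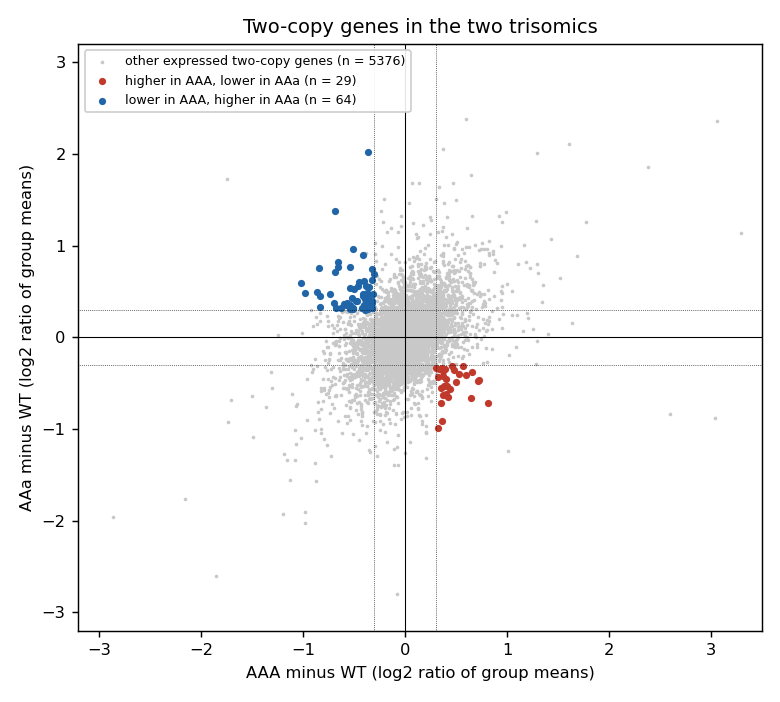
Each point is an expressed 2-copy gene, placed by its log2 ratio of AAA to WT on the horizontal axis and of AAa to WT on the vertical axis, both from group means of 2 arrays; dotted lines mark 0.3 in size. The 29 genes higher in AAA (red) fill the lower right and the 64 genes lower in AAA (blue) the upper left; grey points beyond both limits in these corners are the loci that the rule left out.

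The 29 genes higher in *AAA* had a median difference of 0.40 in *AAA* (0.30 to 0.82) and of -0.47 in *AAa* (-0.99 to -0.31). The 64 genes lower in *AAA* had a median of -0.42 in *AAA* (-1.02 to -0.30) and of 0.43 in *AAa* (0.30 to 2.03). Over all 2-copy genes the medians were -0.01 and -0.00. The difference was the larger of the pair in *AAA* for 45 genes and in *AAa* for 48 genes. In 11 genes both differences reached 0.5 in size and in 7 both reached 0.6, so most of the genes lay close to the limit in at least 1 of the trisomics. Just inside the limit stood AT4G28020, at 0.30 in *AAA* and -0.33 in *AAa*, AT5G48990, at -0.39 and 0.30, and ATG8B, at -0.30 and 0.69. Just outside it stood AT3G51450, at -0.33 in *AAA* and an *AAa* value that rounds to 0.30, AT1G63840, at -0.30 in *AAA* and 0.68 in *AAa*, with the *AAA* value rounding to the limit, and AT5G24890, at -0.37 and 0.30, with the *AAa* value rounding to it.

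In the fit over all 2-copy genes (limma, Benjamini-Hochberg adjusted p below 0.05), 19 of the 93 genes were called in *AAA* against WT, where 4.90% of all 2-copy genes were called. In *AAa* against WT 28 were called, beside 12.0% of all. Calls in both comparisons were made for 9 of the 93 genes, beside 2.12% of all 2-copy genes, and 55 of the 93 were called in neither. Calls with opposite signs in both comparisons took 0.238% of all 2-copy genes. Between the trisomics 80 of the 93 were called, beside 11.2% of all. Both comparisons use the same WT arrays, and the rule used these contrasts, so nothing is read from the counts. By direction, 6 were called higher in *AAA* than WT and 13 lower, beside 2.58% and 2.32% of all 2-copy genes. In *AAa* 18 were called higher than WT and 10 lower, beside 5.52% and 6.44% of all. Against *AAA*, 55 were called higher in *AAa* and 25 lower, beside 5.36% and 5.80% of all. With signals scaled as deposited, the calls against WT were 5 higher and 23 lower in *AAA* and 13 higher and 15 lower in *AAa*. The counts also rested on single arrays: without WT replicate 1 or 2, 8 or 10 of the 93 were called in *AAA* and 15 or 13 in *AAa*, without *AAA* replicate 1 or 2, 3 or 6 were called in *AAA*, and without *AAa* replicate 1 or 2, 10 or 12 were called in *AAa*. Calls in both comparisons were 1 to 3 with any 1 array left out. Over all 2-copy genes the calls dropped as well, from 268 to between 91 and 222 in *AAA* and from 654 to between 258 and 550 in *AAa*.

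In 84 of the 93 genes both *AAA* arrays lay outside the 2 WT arrays on the side of the mean, beside 48.6% of all 2-copy genes, and in 86 both *AAa* arrays did, beside 54.2% of all. In 80 genes the arrays of all 3 karyotypes stood apart with WT in between, which was so for 7.30% of all 2-copy genes; in 31.1% of all, both trisomics stood clear of WT on either side. The 13 other genes overlapped with WT in at least 1 trisomic. Higher in *AAA* these were AT5G66330, AT5G34930, AT3G28590, AT5G12900 and AT4G28020, and lower in *AAA* they were AT5G37130, AT1G12290, AT1G33950, AT4G30500, AT1G54730, AT1G53100, AT4G25020 and ATG8B.

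The genes were dimmer than 2-copy genes in general. Their median signal over the 6 arrays was 241 (78.3 to 8141), against 364 for all 2-copy genes. Below the median brightness stood 57 of the 93 genes, 38 stood in the dimmest of 4 equal brightness classes of the 2-copy genes and 24 in the brightest. The 2 arrays of a karyotype also differed slightly more for them than for other 2-copy genes, with a median gap of 0.20 in WT, 0.20 in *AAA* and 0.16 in *AAa* beside 0.17, 0.15 and 0.15. In 23 of the genes at least 1 array gave a signal under the expression limit of 77.7.

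The gene tables used here gave a symbol to 14 of the 93 genes, 4 of those higher in *AAA* and 10 of those lower in *AAA*. They also list DEWAX as a synonym of AT5G61590, which is higher in *AAA*. The remaining genes are known here by their locus alone, and only their values are given. Of the genes with a symbol, XTH33, APS3, DER2.1, ATG8B, AMY1, KELP, ATL8 and PUP15 were called against WT in neither trisomic. Relatives that did not pass the test are thus not set apart from these genes by it.

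The named genes higher in *AAA* and lower in *AAa* included a pair of cell wall genes. EXLA1 (AT3G45970) encodes an expansin-like protein, a relative of the expansins that loosen cell walls. Its signals were 599 and 769 in WT, 1114 and 1107 in *AAA*, and 504 and 473 in *AAa*. The 3 karyotypes did not overlap. EXLA1 in *AAA* was 1.64-fold above WT, a log2 difference of 0.71, and its difference in *AAa* was -0.48. It was not among the 27 genes that kept both limits when any 1 array was left out. XTH33 (AT1G10550) encodes a xyloglucan endotransglucosylase/hydrolase, an enzyme that cuts and rejoins xyloglucan chains of the wall. Its signals were 113 and 83.6 in WT, 147 and 157 in *AAA*, and 78.3 and 47.9 in *AAa*. The *AAa* arrays lay below WT by a small gap, and 1 of them was under the expression limit. The differences from WT were 0.64 in *AAA* and -0.67 in *AAa* (SE 0.29).

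Other wall genes on the arrays gave no single pattern. Of 4 further expansin genes present in 2 copies, none lay on opposite sides of WT with the order of EXLA1: EXLB1 was at -0.37 in *AAA* and fell by 0.97 in *AAa* (adjusted p = 0.00645, limma), and EXPA9 was at -0.74 and fell by 0.83 in *AAa* (adjusted p = 0.0426, limma). EXPB3, at 0.23 and 0.18, and EXPA16, at -0.04 and -0.13, did not pass the test in either trisomic. EXPA4 (AT2G39700), which lies on Chr.2 beyond AUR2 and so has 3 copies in *AAA* and 2 in *AAa*, measured 0.48 in *AAA* (adjusted p = 0.0829) and fell by 0.62 in *AAa* (adjusted p = 0.0215, limma). Of the other expansin genes of Chr.2, EXPA15 and EXPB1 have 3 copies in both trisomics, and EXPA8 has 3 in *AAA* alone. EXPA15 rose by 0.71 in *AAA* (adjusted p = 0.0180, limma) and was at 0.25 in *AAa* (adjusted p = 0.397). EXPB1 was at 0.34 in *AAA* (adjusted p = 0.0799) and rose by 0.55 in *AAa* (adjusted p = 0.00469, limma). EXPA8 was at 0.18 and -0.16, past the test in neither. Among the 2-copy relatives of XTH33, XTH19 rose in *AAA* by 1.09 (adjusted p = 0.0185, limma), from 78.1 and 103 in WT to 196 and 186, and measured -0.10 in *AAa* (adjusted p = 0.849). XTH16 and XTH18 were below WT in both trisomics by amounts that did not pass the test, at -0.34 and -0.24 in *AAA* and -0.46 and -0.28 in *AAa*. EXGT-A3, on Chr.2 with 3 copies in both trisomics, rose by 0.63 in *AAA* and 0.36 in *AAa* (adjusted p = 0.00122 and 0.0316, limma). XTH32, on Chr.2 with 3 copies in *AAA* and 2 in *AAa*, rose by 0.72 in *AAA* (adjusted p = 8.75e-04, limma). It was at 0.22 in *AAa* (adjusted p = 0.238).

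DEWAX (AT5G61590), a transcription factor of the AP2/ERF class that represses genes of cuticular wax synthesis, was one of the brightest of the 29 genes. It gave 3881 and 3457 in WT, 4760 and 5602 in *AAA*, and 2712 and 2505 in *AAa*. The arrays of the 3 karyotypes stood apart, at 0.50 above WT in *AAA* and at -0.49 in *AAa*. AT5G07580 gave 1225 and 1207 in WT, 1935 and 2087 in *AAA*, and 907 and 854 in *AAa*, with differences of 0.72 and -0.47. Its replicate arrays lay close together in each karyotype.

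A pair of enzyme genes completed the named genes of this direction. MDAR2 (listed as ATMDAR2, AT5G03630) encodes monodehydroascorbate reductase, which returns oxidized ascorbate to its reduced form. It gave 1140 and 1320 in WT, 2091 and 1649 in *AAA*, and 948 and 904 in *AAa*, or 0.60 and -0.41. APS3 (AT4G14680) encodes ATP sulfurylase, the enzyme of the first step of sulfate assimilation. It gave 820 and 832 in WT, 1058 and 1060 in *AAA*, and 657 and 652 in *AAa*. The arrays of each karyotype were almost equal, with differences of 0.36 and -0.34. Its 2-copy relative APS4 had the reverse signs, at -0.16 in *AAA* and 0.37 in *AAa* (adjusted p = 0.574 and 0.0801, limma).

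**Figure D2:**
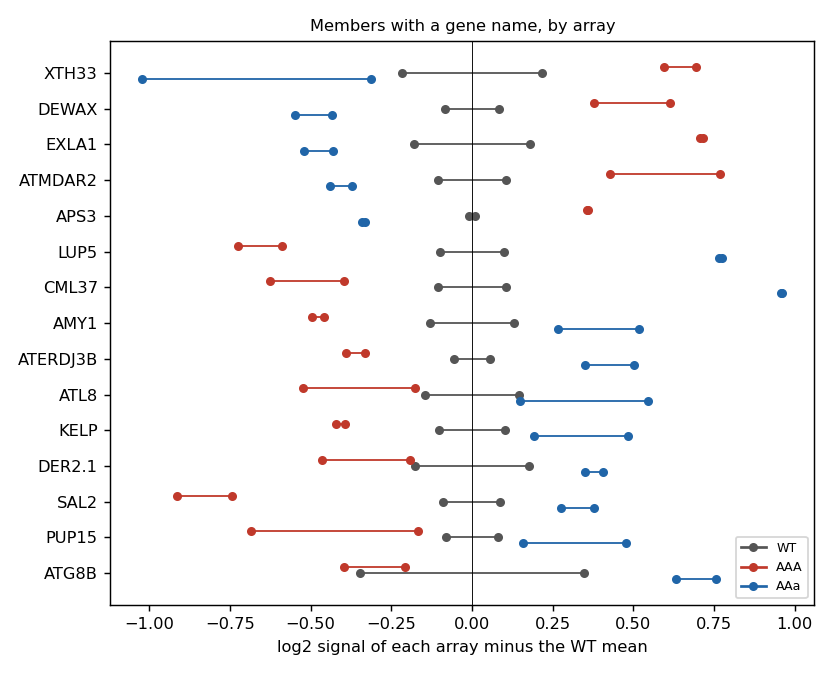
Log2 signal of each array minus the WT mean for the 14 genes with a symbol in the tables used here and AT5G61590, listed there with the synonym DEWAX (grey WT, red AAA, blue AAa; points are the 2 arrays of a karyotype and the line joins them). The upper 5 genes lie to the right of WT in AAA and to the left in AAa, the lower 10 the other way round; ATG8B is the gene whose AAA arrays overlap with the WT arrays.

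Of the genes known by locus alone in this direction, AT4G22730 had the largest smaller-of-the-pair difference. It gave 134 and 148 in WT, 217 and 282 in *AAA*, and 97.4 and 75.1 in *AAa*. It thus stood 1.76-fold above WT in *AAA* and at -0.72 in *AAa*, with no overlap. AT1G59960 (0.42 and -0.65), AT1G03020 (0.40 and -0.61), AT3G26700 (0.44 and -0.57) and AT5G26200 (0.41 and -0.53) also had both trisomics clear of WT. AT1G29660 was the brightest of the 93 genes, with 8602 and 6780 in WT, 12262 and 11790 in *AAA*, and 5408 and 6384 in *AAa*. AT1G33590 gave 4608 and 4545 in WT, 5957 and 5837 in *AAA*, and 2274 and 2608 in *AAa*, so that its difference in *AAa* (-0.91) was larger than that in *AAA* (0.37). The lowest difference in *AAa*, at -0.99, was that of AT3G28590, and it rested on 1 array: the signals were 67.4 and 124 in WT, 90.9 and 143 in *AAA*, and 22.0 and 96.5 in *AAa*. All 3 karyotypes overlapped, and without *AAa* replicate 1 the difference in *AAa* was 0.08. Without WT replicate 1 its difference in *AAA* was -0.12, and without *AAA* replicate 2 it was -0.01.

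The named genes lower in *AAA* and higher in *AAa* included 2 of protein quality control in the endoplasmic reticulum (ER). ERDJ3B (listed as ATERDJ3B, AT3G62600) encodes a DnaJ co-chaperone of the ER chaperone BiP. It gave 2286 and 2473 in WT, 1813 and 1891 in *AAA*, and 3029 and 3365 in *AAa*, at -0.36 and 0.43, with the 3 karyotypes apart. DER2.1 (AT4G21810) encodes a derlin, a membrane protein of the pathway that removes misfolded proteins from the ER. It gave 1257 and 983 in WT, 973 and 805 in *AAA*, and 1416 and 1474 in *AAa*. The gap between its *AAA* and WT arrays was narrow, and the differences were -0.33 and 0.38. DER1 had the same signs at -0.25 and 0.27, and DER2.2 was at 0.25 and 0.35. ERDJ2A was at -0.13 and -0.26, and ERDJ2B at -0.18 and 0.03. None of these relatives passed the test in either trisomic, and DER2.1 itself was called in neither.

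ATG8B (AT4G04620) encodes a small ubiquitin-like protein that is joined to a lipid of the autophagosome membrane. It gave 134 and 216 in WT, 129 and 147 in *AAA*, and 287 and 263 in *AAa*. Its *AAa* arrays were above WT by 0.69, while its *AAA* arrays overlapped with WT: without WT replicate 2 the difference in *AAA* was 0.04. Among the other ATG8 genes ATG8G, also in 2 copies, was at -0.16 in *AAA* and 0.31 in *AAa*, and ATG8C and ATG8F were below WT in both trisomics, none past the test. ATG8H (AT3G06420) has 3 copies in *AAa* and 2 in *AAA*; it fell in *AAA* by 0.70 (adjusted p = 0.0160, limma) and was at 0.44 in *AAa* (adjusted p = 0.102). APG8H (AT3G15580), in the same region, was at 0.13 in *AAA* (adjusted p = 0.619) and rose in *AAa* by 0.78 (adjusted p = 0.00101, limma). ATG8D, with 3 copies in both trisomics, rose in both, by 0.49 and 0.66 (adjusted p = 0.0276 and 0.00330), and ATG8E, with 3 copies in *AAA*, was at 0.0039 and -0.31, past the test in neither.

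CML37 (AT5G42380), a calmodulin-like calcium sensor, gave 69.9 and 81.0 in WT, 57.1 and 48.7 in *AAA*, and 146 and 146 in *AAa*. It was thus 1.95-fold higher in *AAa* than in WT and near or under the expression limit in WT and *AAA*, so that its difference in *AAA* (-0.51) is a difference between dim signals. Among other calmodulin-like genes CML41 fell in both trisomics, by 1.13 in *AAA* (adjusted p = 3.88e-04, limma) and by 1.56 in *AAa* (adjusted p = 1.21e-05), and CML23 and CML38 were above WT in both without passing the test. CML42 had the reverse signs of CML37, at 0.16 and -0.47, past the test in neither. LUP5 (AT1G66960), of the oxidosqualene cyclase family that forms triterpene skeletons, gave 103 and 119 in WT, 73.7 and 67.0 in *AAA*, and 190 and 188 in *AAa*, or -0.66 and 0.77. AMY1 (AT4G25000), an alpha-amylase that cuts starch, gave 147 and 176 in WT, 117 and 114 in *AAA*, and 230 and 194 in *AAa*. Its arrays also stood apart, at -0.48 and 0.39.

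SAL2 (AT5G64000), a relative of the phosphatase SAL1, was among the genes whose difference was mainly in *AAA*. It gave 532 and 471 in WT, 299 and 266 in *AAA*, and 651 and 606 in *AAa*, or -0.83 and 0.33. KELP (AT4G10920), a transcriptional coactivator, gave 916 and 1055 in WT, 734 and 749 in *AAA*, and 1374 and 1124 in *AAa*, or -0.41 and 0.34. Its relative KIWI was above WT in both trisomics, at 0.28 and 0.13, past the test in neither. The last pair of named genes was dim and close to WT. ATL8 (AT1G76410), of the RING-H2 ubiquitin ligase family, gave 111 and 136 in WT, 85.5 and 109 in *AAA*, and 180 and 136 in *AAa*. Its relative ATL5 had the reverse signs, at 0.07 in *AAA* and -0.56 in *AAa*, past the test in neither. PUP15 (AT1G75470), of the purine permease family, gave 95.1 and 84.9 in WT, 80.0 and 55.9 in *AAA*, and 125 and 100.2 in *AAa*.

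Among the genes known by locus alone in this direction, AT5G43910 had the largest smaller-of-the-pair difference. It gave 462 and 453 in WT, 258 and 251 in *AAA*, and 657 and 910 in *AAa*, which is 1.79-fold lower in *AAA* and 1.69-fold higher in *AAa*. AT1G13990 gave 1035 and 1139 in WT, 765 and 728 in *AAA*, and 1663 and 2062 in *AAa*. AT5G52760 gave 1036 and 1267 in WT, 819 and 763 in *AAA*, and 1805 and 1537 in *AAa*. In each of these genes the arrays of the 3 karyotypes stood well apart. AT1G10340 (-0.50 and 0.52) and AT1G21520 (-0.74 and 0.47) also had all 3 karyotypes apart. AT3G62780 (-0.69 and 0.71) and AT3G26470 (-0.65 and 0.82) were dimmer, at 57.5 to 214 on all arrays. AT1G62290 had the lowest difference in *AAA*, at -1.02, and it rested on 1 array: its *AAA* signals were 25.6 and 76.9, beside 87.6 and 93.0 in WT.

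The highest difference in *AAa* was that of AT1G33950, which gave 67.3 and 118 in WT, 79.9 and 60.1 in *AAA*, and 364 and 361 in *AAa*. In *AAa* it stood 4.08-fold above WT, while its *AAA* arrays overlapped with WT, and without WT replicate 2 its difference in *AAA* was 0.04. AT3G28510 gave 144 and 99.8 in WT, 82.0 and 68.2 in *AAA*, and 356 and 274 in *AAa*, or -0.68 and 1.38. AT3G28540 gave 978 and 1003 in WT, 652 and 853 in *AAA*, and 1881 and 1806 in *AAa*, or -0.41 and 0.90. For these 3 genes the difference in *AAa* was the larger by far. AT3G29240, the brightest gene of this direction, gave 4785 and 4541 in WT, 3328 and 3221 in *AAA*, and 5686 and 5917 in *AAa*.

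**Figure D3:**
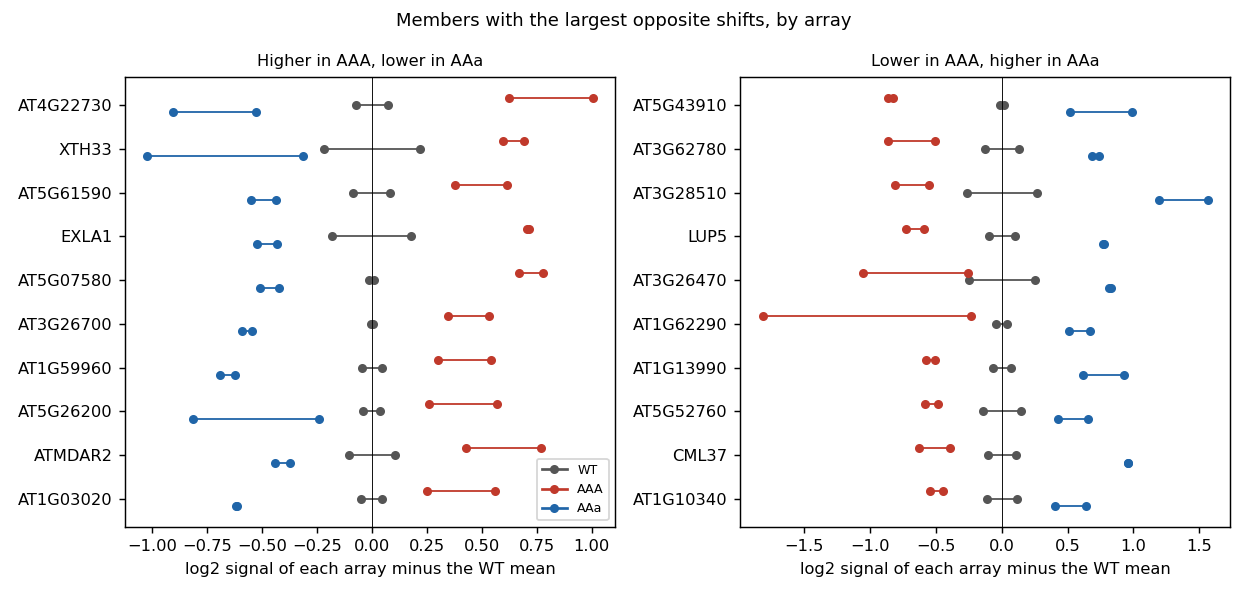
Log2 signal of each array minus the WT mean for the 10 genes of each direction with the largest smaller-of-the-pair difference and no overlap with WT (grey WT, red AAA, blue AAa; points are the 2 arrays and the line joins them). AT5G07580 has tight pairs of arrays on either side of WT, while AT1G62290 has 1 AAA array far from the other.

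Some of the genes passed the test against WT in 1 trisomic alone. The rule used both contrasts, so such calls only describe the genes. They do not show a change in 1 trisomic only, as each gene met the limit of 0.3 in both. Called in *AAA* alone were 10 genes, beside 2.78% of all 2-copy genes: MDAR2 and AT1G29660 among those higher in *AAA*, and SAL2, AT5G66550, AT3G60470, AT1G29240, AT4G17670, AT3G47480, AT4G27450 and AT3G29240 among those lower. AT3G60470 gave 100.2 and 102 in WT, 51.0 and 51.5 in *AAA*, and 146 and 138 in *AAa*. AT5G66550 gave 168 and 166 in WT, 96.8 and 87.1 in *AAA*, and 250.0 and 221 in *AAa*. AT4G27450 gave 2011 and 1812 in WT, 1187 and 1207 in *AAA*, and 2232 and 2561 in *AAa*. In these 3 genes the *AAA* arrays lay far below WT, at -0.98, -0.86 and -0.67, and the *AAa* arrays above it by 0.49, 0.50 and 0.32.

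Called in *AAa* alone were 19 genes, beside 9.84% of all 2-copy genes, 6 of them higher in *AAA* and 13 lower. Besides those already described, AT5G17760 gave 713 and 588 in WT, 460.0 and 487 in *AAA*, and 966 and 1009 in *AAa*. AT4G34630 gave 1705 and 1581 in WT, 1191 and 1445 in *AAA*, and 2274 and 2835 in *AAa*. AT1G80640 ran the other way, with 650 and 643 in WT, 911 and 762 in *AAA*, and 368 and 477 in *AAa*. Their differences in *AAa* were 0.61, 0.63 and -0.62, against -0.45, -0.32 and 0.37 in *AAA*. All 3 genes had the 3 karyotypes apart.

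Leaving out any 1 of the 6 arrays kept both directions in 88 of the 93 genes and both limits in 27. Those 27 were 9 genes higher in *AAA*, with XTH33, DEWAX and APS3 as the named ones, and 18 lower in *AAA*, with LUP5, CML37 and ERDJ3B. Under each of 3 other scalings of the arrays and with 16 added to the signals, 23 of the 27 also met both limits. APS3, AT1G71140, AT1G33590 and AT3G27270 were not among the 23. Of all 93 genes, 42 met both limits under each of these scalings and with 16 added. Applied anew without *AAA* replicate 1 or 2, the rule took 48 or 47 genes as higher in *AAA* in place of 29, and 73 or 88 as lower in place of 64.

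The 93 genes were spread over the 2-copy part of the genome. They took 1.48% of the expressed genes of Chr.1 (28 of 1888), 2.18% of those of Chr.3 beyond AT3G20040 (18 of 826), 2.2% of those of Chr.4 (23 of 1044) and 1.4% of those of Chr.5 (24 of 1711). On each of these chromosomes the genes lower in *AAA* were the more numerous, by 17 to 11, 14 to 4, 17 to 6 and 16 to 8. With no limit on size, 1018 of all 2-copy genes were lower in *AAA* and higher in *AAa*, and 956 the other way round. Probe sets with no single gene in the annotation, which may lie in triplicated regions, did not share this split. Of those with the pattern, 119 were higher in *AAA* and 110 lower.

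Of the 92 genes that could be placed in the order of protein-coding genes, 15 lay within 5 genes of another of them, in 8 pairs. In 7 of the pairs both genes had the same direction. As 64 of the 93 genes were lower in *AAA*, many pairs would share a direction in any case, and this was not tested. AT1G33590 and AT1G33600 were next to each other and both higher in *AAA*, at 0.37 and 0.40, and lower in *AAa*, at -0.91 and -0.46. AT3G28510 and AT3G28540, 3 genes apart, were both lower in *AAA* and higher in *AAa*, and AT3G28590, 5 genes beyond AT3G28540, had the reverse signs but overlapping arrays. AT5G17760 and AT5G17780 were 2 genes apart, at -0.45 and -0.38 in *AAA* and 0.61 and 0.42 in *AAa*. The other pairs were AT3G60450 and AT3G60470, AMY1 and AT4G25020, AT4G30450 and AT4G30500, and AT5G52760 and AT5G52810, each lower in *AAA*. The direction of AT4G25020 in *AAa* rested on WT replicate 1, without which it was -0.05. Nearby genes of 1 family can be similar in sequence, and whether their probe sets share signal was not analysed here. Of 59 expressed 2-copy genes directly beside one of the 93, 2 were themselves among the 93, and 32 had a difference between *AAa* and *AAA* of the same sign as that gene.

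**Figure D4:**
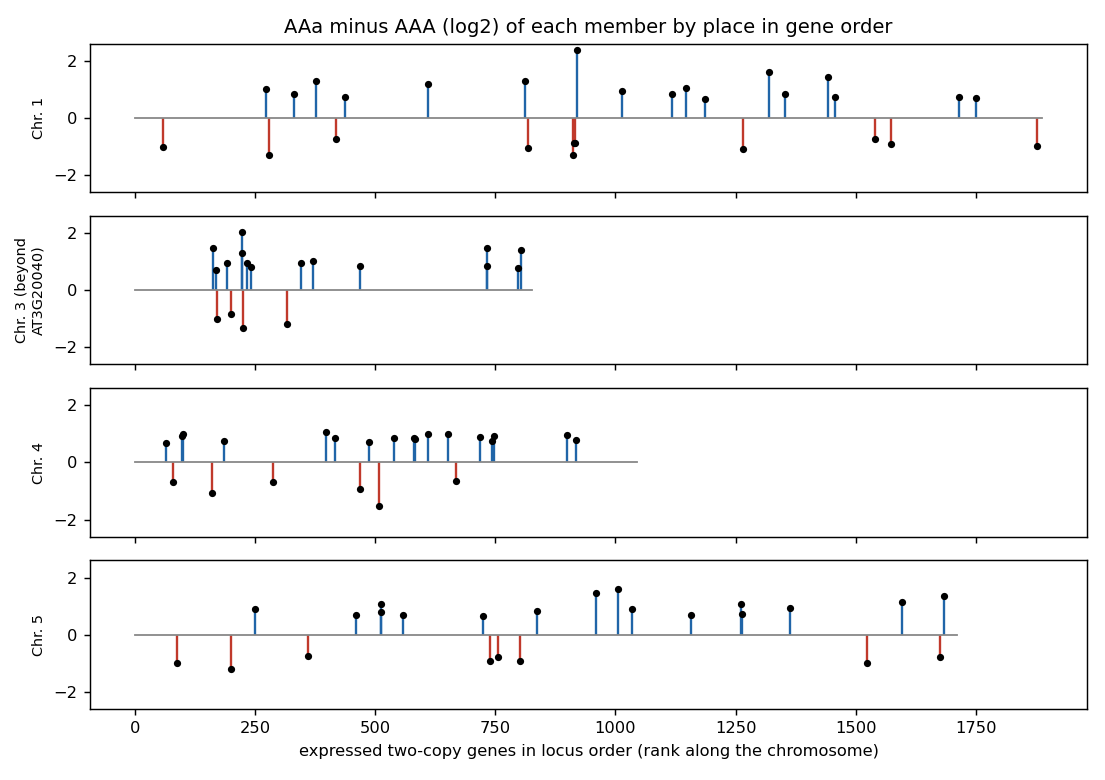
Log2 difference between AAa and AAA of each of the 93 genes (vertical axis) against its rank among expressed 2-copy genes in locus order (horizontal axis), by chromosome; blue stems are genes lower in AAA, red stems genes higher in AAA. Both directions occur on all 4 chromosomes, with the highest stem, AT1G33950, on Chr.1.

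AT5G44820 was the gene with more than 1 probe set of its own. The probe set used gave -0.54 in *AAA* and 0.35 in *AAa*. Its other probe set had the same signs, at -0.26 and 0.48, with signals of 179 and 208 in WT, 137 and 192 in *AAA*, and 289 and 253 in *AAa*, so that 1 *AAA* array lay within the WT range.

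The 93 genes were also set beside 12 lists of leaf pathways. The probe annotation named few genes of the lists, so that at most 2 expressed 2-copy genes of a list were measured, and XTH33, of the cell wall list, was the only one of the 93 on a list. Of the 2 measured salicylate and defence genes, WRKY53, a transcription factor of defence and senescence, rose in both trisomics, by 0.54 in *AAA* (adjusted p = 0.0166, limma) and 0.41 in *AAa* (adjusted p = 0.0360). GRX480, a glutaredoxin induced by salicylate, rose in *AAa* by 1.47 (adjusted p = 8.45e-05, limma) and was at 0.03 in *AAA* (adjusted p = 0.951). Of the cold and abscisic acid list, COR47 and LTI30, both dehydrins, rose in *AAa* by 0.61 and 0.91 (adjusted p = 0.00470 and 0.00570, limma), and were at 0.25 and -0.29 in *AAA* (adjusted p = 0.315 and 0.459). LTI30 was thus on opposite sides of WT, short of the limit in *AAA*.

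No gene on any of the lists had opposite signs and passed the test in both trisomics. Of the touch list ZAT10, a zinc finger repressor of stress responses, rose in *AAA* by 0.95 (adjusted p = 5.42e-05, limma). It measured 0.33 in *AAa* (adjusted p = 0.0645). Of the auxin list IAA29 fell in both, by 0.88 and 1.01 (adjusted p = 0.00947 and 0.00177, limma). GH3.5, also of that list, was at -0.05 in *AAA* and -0.26 in *AAa*, past the test in neither. The flavonoid gene DFR rose in *AAa* by 0.96 (adjusted p = 0.0295, limma) and measured 0.78 in *AAA* (adjusted p = 0.124). GI, of the clock list, rose in *AAa* by 0.46 (adjusted p = 0.0384, limma), and LHCB4.1, of the light-harvesting list, fell there by 0.44 (adjusted p = 0.0345). In *AAA* they were at 0.07 and -0.09 (adjusted p = 0.832 and 0.774). QQS, of the list for sugar starvation, rose in both, by 3.05 and 2.36, and ROF2, of the heat shock list, fell in both, by 2.86 and 1.96 (adjusted p of at most 1.40e-07, limma). No expressed 2-copy gene of the jasmonate and glucosinolate lists was measured.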

How the data were processed

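Rosette leaf RNA of WT, *AAA* and *AAa* was hybridised to 6 ATH1 arrays. The authors used GCOS, with no version stated in the sources, to make the deposited intensity values, linear probe set signals with a 2% trimmed mean near 500 on each array; the GC-RMA and vsn values of the study were not used here. Groups came from the sample titles. Of 22810 probe sets (64 controls), 13513 had 1 gene, 503 several and 8794 none in the platform annotation; 13436 were matched to a locus by gene ID in RefSeq's table for TAIR10.1, used for names and gene order only, as the sources do not name the build of the array annotation. No sequence or promoter motif was analysed here.

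Signals below 1 (246 to 489 per array) were set to 1, taken to log2 and centred on each array's median over the expressed 2-copy genes (6-array mean log2 of at least 6.28, a signal of 77.7; brightest probe set per gene). Genes were tested, two-sided, with limma 3.58.1 in R 4.3.3 (lmFit, eBayes with intensity trend, 3 groups in 1 fit, 3 residual and a median of 13.5 prior degrees of freedom), adjusted after Benjamini and Hochberg over the 5469 2-copy genes (over the 7246 expressed genes where a gene has 3 copies in a trisomic), threshold 0.05. The script was also run on simulated data in which genes were changed in *AAa* alone, so that run did not cover opposite shifts. SE is that of the limma fit. The 6 arrays limit the precision.

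Members and lists were chosen with earlier results of these data known. The rule for naming took, per direction, the 10 non-overlapping genes with the largest smaller-of-the-pair difference, every gene called in both comparisons and every gene on a list. The other genes described, those with a name, the extreme ones, neighbours and relatives by name stem, were chosen after their values were seen. Alternatives were other scalings, filters, pseudocount, probe choice, replicate block, p adjustment, no intensity trend and each array left out.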

Additional observations from a re-analysis of the deposited data

Results flagged for a closer look

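The following genes are on the pathway lists and are not among the 93; in each the effects of the 2 trisomics differed from each other by the test of *AAa* against *AAA* (limma, adjusted over all 2-copy genes). GRX480 was higher in *AAa* than in *AAA* by 1.43 (adjusted p = 9.35e-05), with 153 and 180 in *AAA* and 456 and 439 in *AAa*. LTI30 was higher by 1.20 (adjusted p = 6.42e-04), with 195 and 146 in *AAA* and 409 and 368 in *AAa*. ROF2, a peptidyl-prolyl isomerase of the heat response that was below WT in both, was higher by 0.90 (adjusted p = 4.24e-04). ZAT10 differed by -0.61 (adjusted p = 0.00184) and QQS by -0.69 (adjusted p = 0.00759). Both genes were above WT in both trisomics, ZAT10 in *AAa* short of the test, with the higher level in *AAA*. In each of the 5 genes both arrays of one trisomic lay above both of the other.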

How the results depend on the processing

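The number of genes depended on the filter on dim signals: without a filter 190 genes were higher in *AAA* and 477 lower in *AAA*, and with the filter at the median of all probe sets the genes lower in *AAA* were 39. Other scalings gave 23 to 26 genes higher and 53 to 68 lower in *AAA*. Under each of them all 93 kept both directions and 53 to 66 met both limits. Under all of them and with 16 added to the signals, 42 of the 93 met both limits. These scalings moved the median 2-copy gene by up to -0.09. They moved the split of calls: 141 genes were called higher and 127 lower in *AAA* against WT, but 97 and 227 with signals as deposited, 90 and 216 when centred on all expressed genes and 88 and 196 after quantile normalization; in *AAa* the counts were 302 and 352, then 247 and 469, 205 and 599, and 204 and 508. Among the 93 the higher and lower calls in *AAA* were then 5 and 23, 4 and 23, and 4 and 19, and in *AAa* 13 and 15, 10 and 18, and 12 and 16.

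Without a filter 86 and 328 2-copy genes were called in *AAA* and *AAa* against WT, with 4, 8 and 1 of the 93 called in *AAA*, in *AAa* and in both. Without the intensity trend the counts were 151 and 391, with 9, 13 and 2 of the 93. Adjusted over all expressed genes, calls in both were 17. With 1 array left out, 30 to 48 genes met the rule as higher in *AAA* and 55 to 88 as lower; 91 to 222 2-copy genes were called in *AAA* and 258 to 550 in *AAa*, with 3 to 17, 10 to 22 and 1 to 3 of the 93 called in *AAA*, *AAa* and both. The lone array of a group was then assumed to vary like the other groups. Of the 93, 59 to 80 met both limits in each such fit. ATG8B in *AAA* reversed without WT replicate 2, and ranged from -0.65 to 0.044 with 1 array left out; AT1G33950 (0.04) did so too, and AT1G53100 (0.09) without WT replicate 1. The cause was not tested. The replicate numbers did not pair the arrays (deviations of same-numbered arrays correlated at -0.05 to 0.05), and with the replicate block 262 and 637 2-copy genes and 18, 28 and 7 of the 93 were called. Matching probe sets also by locus name, chosen after seeing the data, gave 29 and 65 genes. With 2 arrays a group and dim signals, differences near 0.3 lie close to the spread between arrays.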

Other observations

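Of 6341 probe sets above the expression limit that have no single gene in the annotation, 229 showed the same pattern, 119 higher in *AAA* and lower in *AAa* and 110 the other way round. They may lie in triplicated regions and were not counted among the 93 genes.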
